A study of Mus musculus with 6 samples.

Results

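Replication-dependent histone genes were taken as every gene table entry of usable status whose identifier began with Hist1, Hist2, Hist3 or Hist4. This gave 68 of 23415 entries and, with repeated symbols counted once, 66 histone genes. They were 6 genes of the linker histone H1 and 16 H2A, 19 H2B, 12 H3 and 13 H4 genes of the nucleosome core. The Hist1 cluster on chromosome 13 held 53 of them, the Hist2 cluster on chromosome 3 held 9, the Hist3 cluster on chromosome 11 held 3, and Hist4h4 lay alone on chromosome 6.

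The study addressed the role of NLRP3, the sensor protein of an inflammasome, in T helper type 2 (Th2) cells. CD4 T cells from C57/Bl6j mice aged 7 weeks, wild-type (WT) or NLRP3 knockout (NLRP3KO), were sequenced naive or after 3 or 6 days of Th2 culture. Each of the 6 groups was 1 library, so every difference below is between single libraries, with no replicate check and no p-value. The 4 cultured groups, WT and NLRP3KO at day 3 and at day 6, received 10 ng/ml of IL-4 and an IFNgamma-blocking antibody in plates carrying antibodies to CD3 and CD28, and their libraries came from RNA depleted of ribosomal RNA. WT naive and NLRP3KO naive cells received no Th2 culture, and their libraries came from purified mRNA. Where 4 values are listed below, they are those of WT and then NLRP3KO at day 3, followed by WT and then NLRP3KO at day 6. The knockout is a whole-animal label; the number of mice behind each sample and the design of the allele are not stated in the labels.

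Canonical histone genes are switched on as a cell enters S phase, when new DNA must be packed into nucleosomes, and their mRNA is degraded when replication stops. Their mRNAs carry no poly(A) tail and end instead in a conserved stem-loop that is bound by the protein SLBP. T cells that divide quickly after activation are a known setting of high histone mRNA. Libraries that start from poly(A) RNA lose most of these transcripts, so the naive libraries are described apart from the Th2 libraries.

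The stem-loop was looked for by its conserved pattern in the GENCODE M21 transcripts of the 66 genes and was found in those of 44, in 12 of 13 H4, 9 of 12 H3, 9 of 16 H2A, 10 of 19 H2B and 4 of 6 H1 genes. Gene models that stop near the stop codon do not reach it, so a missing match says only that these letters are not in the annotated transcript. The 5 examples below are shown since they carry the 3' end that sets how these mRNAs are captured, with the stem and loop in capitals and 5 bases on each side, 5' to 3'.
Hist1h1c: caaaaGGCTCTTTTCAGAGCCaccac
Hist1h2ad: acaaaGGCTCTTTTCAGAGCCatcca
Hist1h3c: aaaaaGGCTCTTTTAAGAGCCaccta
Hist1h4d: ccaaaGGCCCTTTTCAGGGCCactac
Hist1h4b: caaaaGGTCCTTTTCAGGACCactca
The stem-loop of Hist1h1c and Hist1h2ad occurred letter for letter in 24 genes of the H1, H2A, H2B and H3 classes and in 0 H4 genes. That of Hist1h4d occurred in 7 genes, all of them H4. That of Hist1h3c occurred in 6 H1, H2B and H3 genes, and that of Hist1h4b in 2 H4 genes.

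Coding regions repeat each other far more. Of all 50-base windows in a gene's coding sequence, a median of 72.4% also occurred in another histone gene, with class medians of 10.9% for H1, 81.7% for H2A, 74.1% for H2B, 84.7% for H3 and 70.3% for H4. The sources used here do not say how reads that fit several copies were placed, so a single gene's value in these families is uncertain, and class sums are less exposed to it. Only 9 genes had at most 20% of windows shared, among them Hist1h1b, Hist2h2bb and Hist4h4 with 0% and Hist2h4 with 6.08%.

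RefSeq promoter windows, from 250 bases before to 50 after a gene's start on GRCm38.p6, were found for 60 of the 66 genes. Motifs of histone promoters described in textbooks were looked for on both strands. CCAAT was in all 48 windows of the H1, H2A, H2B and H3 classes and in 3 of 12 H4 windows, against 37.4% of all 32851 RefSeq windows. GGTCCG was in 11 of 12 H4 windows and in 2 others, against 8.25% of all windows. ATTTGCAT, the octamer, was in 7 of 16 H2A and 6 of 16 H2B windows and in no H1, H3 or H4 window, against 1.74%. AAACACA was in 5 of 6 H1 windows against 7.18%, and TATAAA was in 35 of the 60 windows against 13.6%. A CCAAT and a GGTCCG match overlapped each other in Hist1h3i, and no other matches of different motifs overlapped. The windows below belong to 4 of the most abundant genes of their class, with these motifs in capitals on either strand. Hist1h4d carries CCAAT, unlike most H4 windows, and Hist1h1c lacks TATAAA, found in 4 of 6 H1 windows. These 4 windows are examples and include no H2A gene. They lie at chr13:23738557-23738856 on the plus strand for Hist1h1c, chr3:96269450-96269749 on the plus strand for Hist2h2bb, chr13:23562336-23562635 on the minus strand for Hist1h3e and chr13:23581318-23581617 on the plus strand for Hist1h4d, all on GRCm38.
Hist1h1c: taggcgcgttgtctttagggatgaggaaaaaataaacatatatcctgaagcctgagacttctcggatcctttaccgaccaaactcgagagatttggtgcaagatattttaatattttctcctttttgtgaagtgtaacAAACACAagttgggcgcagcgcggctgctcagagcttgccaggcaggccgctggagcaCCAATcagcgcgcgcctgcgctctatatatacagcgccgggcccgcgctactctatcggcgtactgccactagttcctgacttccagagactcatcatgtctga
Hist2h2bb: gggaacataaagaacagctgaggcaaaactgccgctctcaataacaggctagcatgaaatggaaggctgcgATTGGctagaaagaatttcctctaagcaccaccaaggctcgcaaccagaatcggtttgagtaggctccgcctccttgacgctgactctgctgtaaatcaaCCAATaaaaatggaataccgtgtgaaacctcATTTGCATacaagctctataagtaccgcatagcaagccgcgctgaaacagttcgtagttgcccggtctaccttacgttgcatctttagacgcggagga
Hist1h3e: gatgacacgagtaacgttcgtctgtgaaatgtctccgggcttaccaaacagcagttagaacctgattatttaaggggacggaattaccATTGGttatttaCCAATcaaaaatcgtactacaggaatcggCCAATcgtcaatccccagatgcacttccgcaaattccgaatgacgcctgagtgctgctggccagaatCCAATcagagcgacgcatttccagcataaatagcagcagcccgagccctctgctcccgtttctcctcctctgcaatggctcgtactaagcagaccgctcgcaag
Hist1h4d: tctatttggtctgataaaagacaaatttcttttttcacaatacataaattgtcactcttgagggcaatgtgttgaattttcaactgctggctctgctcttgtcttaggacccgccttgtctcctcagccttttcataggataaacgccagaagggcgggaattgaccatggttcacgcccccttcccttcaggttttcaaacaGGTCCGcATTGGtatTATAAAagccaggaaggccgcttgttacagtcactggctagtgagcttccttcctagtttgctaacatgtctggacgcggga
A match is a string of letters and was not measured as a binding site here.

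The Th2 libraries were shallow. Levels are given as FPKM, which are fragments normalized to transcript length and library total. These totals came out at 604216, 475361, 562337 and 129744 for the Th2 libraries, against 4571259 and 3112344 in WT naive and NLRP3KO naive. Far fewer fell on genes: outside the histones, an estimated 17668, 15284, 18602 and 3280 fragments in the Th2 libraries. In WT naive and NLRP3KO naive these were 1155805 and 943211. The shares of all genes given below rest on this depth. On an H4 coding region, 1 fragment was worth an FPKM of 5.30, 6.74, 5.70 and 24.7 in the Th2 libraries. Of 57 histone genes whose fragments could be estimated, 43, 31 and 49 had at least 3 fragments in WT day 3, NLRP3KO day 3 and WT day 6, but only 14 had that many in NLRP3KO day 6. Nlrp3 was listed at an FPKM of 0.0569 in WT naive and at 0 in the other 5 libraries, so the knockout could not be checked at this depth. The 7 of 8 CD4 T cell markers in the tables were above 0 in both naive libraries, and 7, 6, 7 and 5 of them were above 0 in the Th2 libraries. Markers of CD8 T, B, myeloid, NK and erythroid cells were at 0 in the Th2 libraries except Cd79b, at 1.57 in WT day 3.

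Histone transcripts were abundant in all 4 Th2 libraries and lower in NLRP3KO at both times. Their summed FPKM was 2826 in WT and 1277 in NLRP3KO at day 3, and 4035 in WT and 1587 in NLRP3KO at day 6. Per 1000 fragments on other genes there were 40.5, 17.9, 52.9 and 30.7 histone fragments. The WT and NLRP3KO libraries did not overlap on either measure. In all 4 libraries H4 genes gave the most, between 42.4% and 49.0% of the summed FPKM, followed by H3 and H2A, while H2B gave 5.05% to 9.91% and H1 4.64% to 7.25%. In the plot of single genes, H4 and H3 genes sit highest and most H2B genes sit low.

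**Figure D1:**
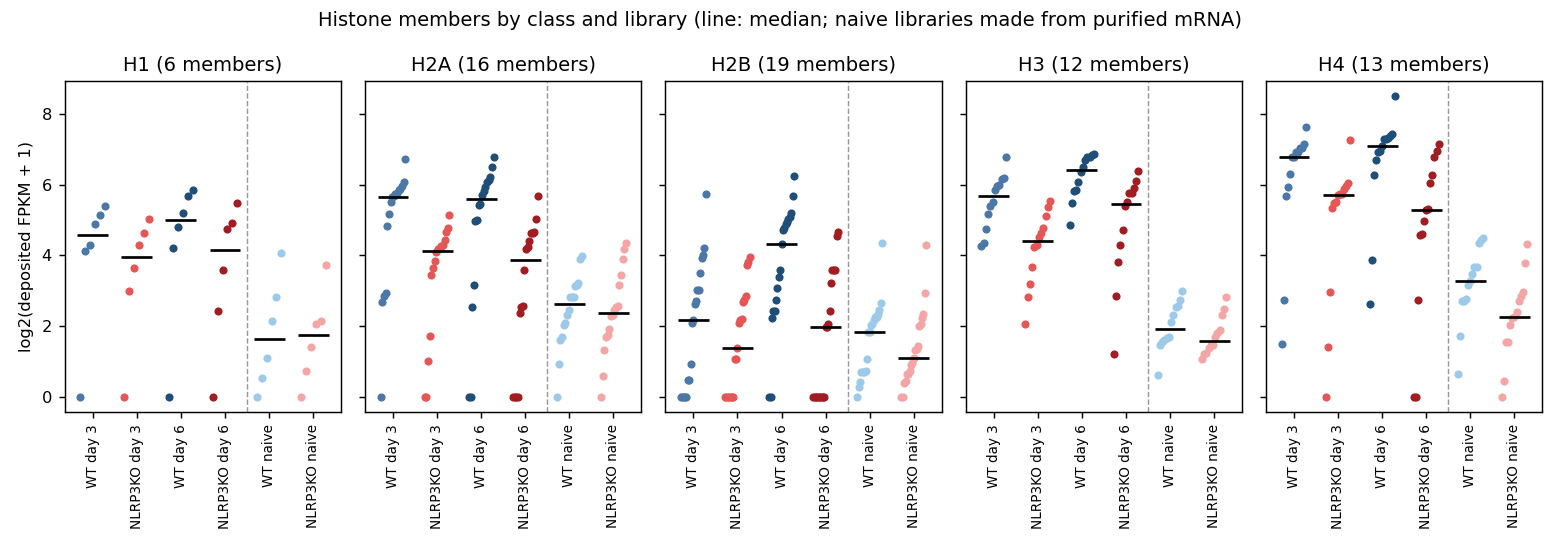
Deposited FPKM plus 1 on a log2 axis for each of the 66 histone genes, by class, with 1 column of points per library and the median as a line; naive libraries stand right of the dashed line. The H4 medians are 109.8 in WT day 3 and 51.6 in NLRP3KO day 3, and H2B holds 9 of the 16 genes listed at 0 in NLRP3KO day 6.

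At day 3, the histone level of the NLRP3KO library was less than that of WT in every class. After scaling each library by genes expressed in all 6, the summed level was 0.399 times that of WT. Pooled over the 57 genes with estimated fragments, 273 fragments against 716 gave a ratio of 0.428, with an exact 95% interval of 0.371 to 0.492 that covers counting error only. Of 62 genes that reached an FPKM of 1 in either library, 40 were at least 2-fold lower on the scale of log2 of scaled FPKM plus 1, where 27.2% of all 5746 such genes were. Another 5 were at least 2-fold higher, where 25.4% of all genes were. The median difference was -1.51 on the log2 scale against 0.11 for all genes. Among the 52 histone genes above 0 in both libraries, 33 were at least 2-fold lower, where 14.3% of all genes were, and 2 were at least 2-fold higher, where 13.5% were. The deposited confidence bounds lay apart for 3 genes, Hist1h3c, Hist1h3e and Hist1h4m, all lower in NLRP3KO, where 2.47% of all genes were lower with bounds apart. For 0 histone genes was NLRP3KO higher with bounds apart, where 2.26% of all genes were. A value of 0 often has both bounds at 0, so a lower bound above 0 in the other library then counts as apart. Hist1h4m was listed at 0 in NLRP3KO. In bulk RNA, fewer cells in S phase and less histone RNA per cell cannot be told apart.

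**Figure D2:**
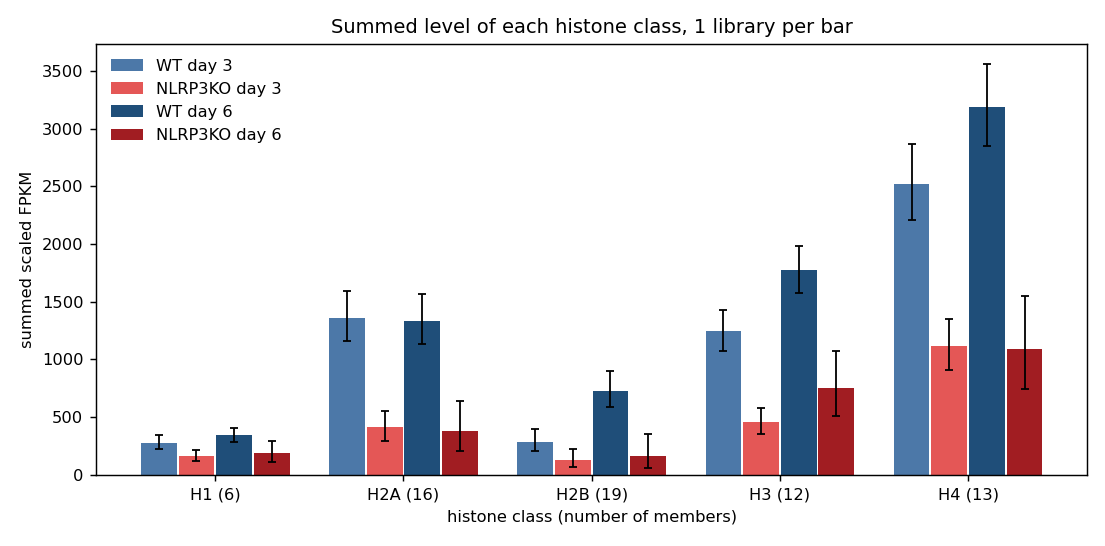
Summed scaled FPKM of the genes of each histone class in the 4 Th2 libraries, 1 library per bar; error bars are exact 95% Poisson intervals of the estimated fragments, rescaled, and cover counting error only. Both NLRP3KO bars are lower than the WT bar of the same day in each class.

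H4, which forms the centre of the nucleosome with H3, had the highest levels. Hist1h4d, the most abundant histone gene by mean Th2 level (chr13:23673471-23673782 on mm9), had FPKM of 129.7 in WT and 151 in NLRP3KO at day 3, and of 363 in WT and 141 in NLRP3KO at day 6. At day 3 it was 1 of 3 H4 genes that were not lower in NLRP3KO, with a log2 difference of 0.04. WT day 6 stood above the other 3 libraries, the day 6 difference was -1.53, and the WT day 6 value lies above its own deposited upper bound of 325. Hist1h4k had FPKM of 119.8, 52.0, 170.1 and 124, log2 differences of -1.37 at day 3 and -0.63 at day 6. Hist1h4c had 139.7, 57.9, 123 and 108. Both had their lowest value in NLRP3KO day 3. Hist2h4 (chr3:96066893-96067240 on mm9), whose coding sequence is nearly free of shared windows, had FPKM of 197, 51.9, 103 and 38.5, and WT was higher than NLRP3KO on both days. Its log2 differences were -2.09 at day 3 and -1.57 at day 6.

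Across the 13 H4 genes, 8 were at least 2-fold lower in NLRP3KO at day 3, where 27.2% of all genes were. None of the 13 was at least 2-fold higher, where 25.4% of all genes were. Hist1h4m had FPKM of 120.4 and 76.1 in WT day 3 and day 6 and was listed at 0 in both NLRP3KO libraries. All its coding windows occur in Hist1h4n, which had 78.2, 39.3, 136 and 23.4, so how reads were divided between this pair is uncertain. Hist1h4b, at 49.9, 64.6, 155 and 30.1, resembled Hist1h4d in that NLRP3KO was lower only at day 6. Hist1h4f had 129.7, 44.6 and 120.3 in WT day 3, NLRP3KO day 3 and WT day 6 and was listed at 0 in NLRP3KO day 6. Hist4h4, the lone gene on chromosome 6 with no shared windows, was low in all 4 libraries at 1.82, 1.67, 5.19 and 5.64.

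H3, the core histone whose tail carries many of the known chromatin marks, was summed at 617, 257, 971 and 465 FPKM. The pooled ratio at day 3 was 0.389 (0.291 to 0.514), with 9 of 12 genes at least 2-fold lower, where 27.2% of all genes were. Hist1h3e had FPKM of 109.4, 21.8, 109.9 and 58.5 and Hist1h3c had 61.5, 3.14, 113 and 53.5. These are the H3 genes whose bounds lay apart at day 3, and in both the NLRP3KO value at day 6 was closer to WT. Hist1h3g was the most even, at 44.5, 45.5, 43.9 and 44.8. Hist1h3d was lower at day 3, at 33.6 against 63.0, and not at day 6, at 82.2 against 65.7. The other named H3 genes, Hist2h3b, Hist1h3b, Hist1h3h and Hist1h3i, had log2 differences of -2.17 to -0.21 at day 3 and -2.59 to -0.94 at day 6.

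H2A and H2B pair with each other on the outside of the nucleosome. H2A had the lowest pooled ratio at day 3, 0.302 (0.209 to 0.427). Of 15 genes, 14 were at least 2-fold lower, where 27.2% of all genes were. Differences between classes were not tested. Hist1h2ak had FPKM of 104, 26.3, 108 and 31.4, so that both WT libraries lay far above both NLRP3KO libraries. The 8 named H2A genes had log2 differences of -2.14 to -1.39 at day 3. Hist2h2ac was the exception, with 27.2 in WT and 34.4 in NLRP3KO at day 3. Hist1h2aa, known from the testis, was at 0 in all 6 libraries.

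H2B genes were sparser. At day 3, 8 of 17 were at least 2-fold lower and 5 at least 2-fold higher, where 27.2% and 25.4% of all genes were. Among the 9 above 0 in both libraries, 3 were at least 2-fold lower and 2 higher, where 14.3% and 13.5% of all genes were. The pooled H2B ratio was 0.345 (0.164 to 0.673), from 12 fragments against 39. Hist2h2bb, the H2B gene with the highest mean Th2 level and no shared windows, had FPKM of 52.5, 12.1, 50.4 and 22.3, and WT was higher on both days. The 5 that were higher were Hist1h2ba, Hist1h2bj, Hist1h2bk, Hist1h2bl and Hist1h2bp, named after their values were seen. Their WT day 3 values were 0, 0, 3.23, 0.881 and 0 and their NLRP3KO values 3.53, 3.57, 14.4, 3.22 and 6.15. For the 4 of them with estimated fragments, each value rests on under 3 fragments.

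H1, which binds the DNA between nucleosomes, differed least in summed level, with a pooled ratio at day 3 of 0.630 (0.436 to 0.901). At day 3, 1 of 5 genes was at least 2-fold lower, near the 27.2% of all genes. Hist1h1c, whose gene also has a poly(A) signal near the end of an annotated transcript, had FPKM of 33.9, 31.7, 50.1 and 43.6, close between genotypes on both days. Hist1h1b had 40.9, 24.0, 56.9 and 29.4, lower in NLRP3KO by less than 2-fold at day 3 and by slightly more at day 6. Hist1h1t, the testis linker histone, was at 0 in all 6 libraries.

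**Figure D3:**
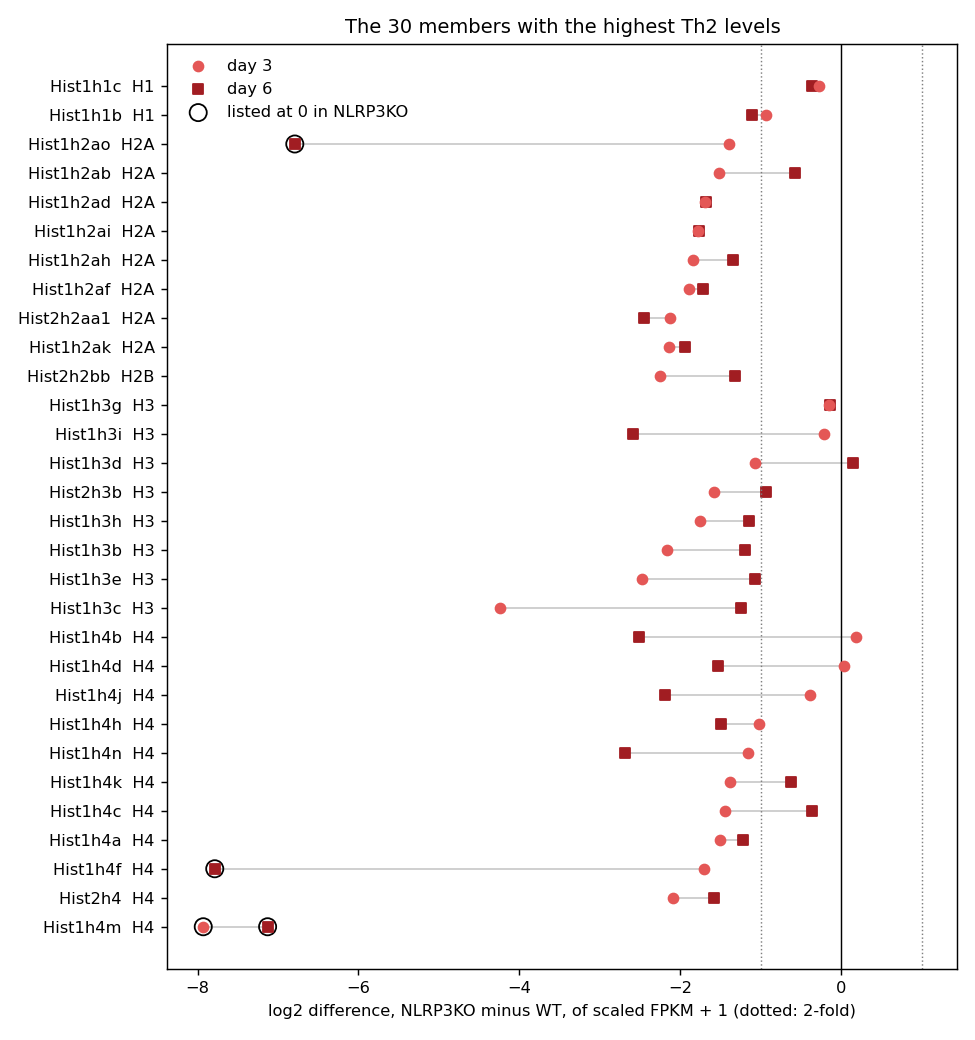
Log2 difference of NLRP3KO minus WT in scaled FPKM plus 1 for the 30 histone genes with the highest mean Th2 level, by class; circles are day 3, squares day 6, open rings mark genes listed at 0 in the NLRP3KO library, dotted lines mark 2-fold. Of the 30, 27 lie left of 0 on both days, where 37.1% of all genes kept on both days were lower on both. The ranking includes the WT levels, and of all 60 histone genes kept on both days 45 were lower on both.

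At day 6, summed histone FPKM was again lower in NLRP3KO, at 0.349 times the scaled WT level. The size of this difference depends on what it is set against, as the NLRP3KO library was the shallowest. Its 101 histone fragments against 984 gave a pooled ratio of 0.395 (0.319 to 0.485), while per fragment on other genes the ratio was 0.582 (0.470 to 0.715). Over the 9 genes with at most 20% shared windows, the pooled ratio of 0.5998 (0.2971 to 1.109) includes 1. Of 62 genes, 45 were at least 2-fold lower, or 72.6%, where 53.8% of all 5333 genes were, and 1 was at least 2-fold higher, Hist2h2be, where 20.9% of all genes were. The histone median of -1.46 lay beside a median of -1.52 for all genes, so by this median the histones did not stand apart. Many genes were at 0 in the shallow library. Among genes above 0 in both, 33 of 49 histone genes were at least 2-fold lower, where 9.88% of all genes were, with a median of -1.24 against 0.33. In the same set 0 were at least 2-fold higher, where 27.9% of all genes were. The filter needs a value above 0 in NLRP3KO day 6, so it drops low NLRP3KO values by itself. This holds for every comparison with that library. Histone genes that share reads could pass on under 1 estimated fragment, as Hist1h2ae did at 0.448 and Hist1h2bj at 0.408. Histone genes and all genes may therefore not meet the filter alike. The bounds lay apart for 9 genes, all lower in NLRP3KO, where 12.2% of all genes were lower with bounds apart and 0.244% were higher. Of these, Hist2h2ac, Hist1h2bc, Hist1h2bg, Hist1h2bk and Hist1h2bn were listed at 0 in NLRP3KO with both bounds at 0. Their separation therefore does not tell absence from shallow sampling.

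By class at day 6, the pooled ratios were 0.587 (0.336 to 0.969) for H1, 0.350 (0.187 to 0.605) for H2A, 0.262 (0.0938 to 0.594) for H2B, 0.391 (0.261 to 0.567) for H3 and 0.373 (0.249 to 0.540) for H4. Per fragment on other genes, H1 came to 0.865 (0.496 to 1.43), an interval that includes 1, and the other classes to between 0.387 for H2B and 0.576 for H3, with every upper limit at or under 0.892. Hist1h2ao and Hist2h2ac, H2A genes at 60.1 and 30.9 in WT day 6, were listed at 0 in NLRP3KO day 6. Hist1h2bg, the highest H2B gene of WT day 6 at 74.6, was listed at 0 as well. All coding windows of Hist1h2ao occur in Hist1h2ap, a gene of low-data status left out here, which had 14.5 in NLRP3KO day 6. For a gene of H4 length, 3 fragments in that library correspond to an FPKM of 74.1, so single zeros there do not separate absence from shallow sampling. Across both days, 45 of 60 genes kept on each day were lower in NLRP3KO on both, where 37.1% of all 3904 such genes were. At least 2-fold lower on both were 30 of the 60, where 17.8% of all genes were, made up of 10 H2A, 7 H2B, 7 H3 and 6 H4 genes. One gene, Hist1h4i, was higher on both days, at 6.73 against 5.65 and 22.6 against 13.7, where 19.4% of all genes were. The remaining 14 turned direction, where 43.4% of all genes did. Of these, 12 went from higher at day 3 to lower at day 6, where 30.7% of all genes did, and 8 of the 12 were H2B genes.

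**Figure D4:**
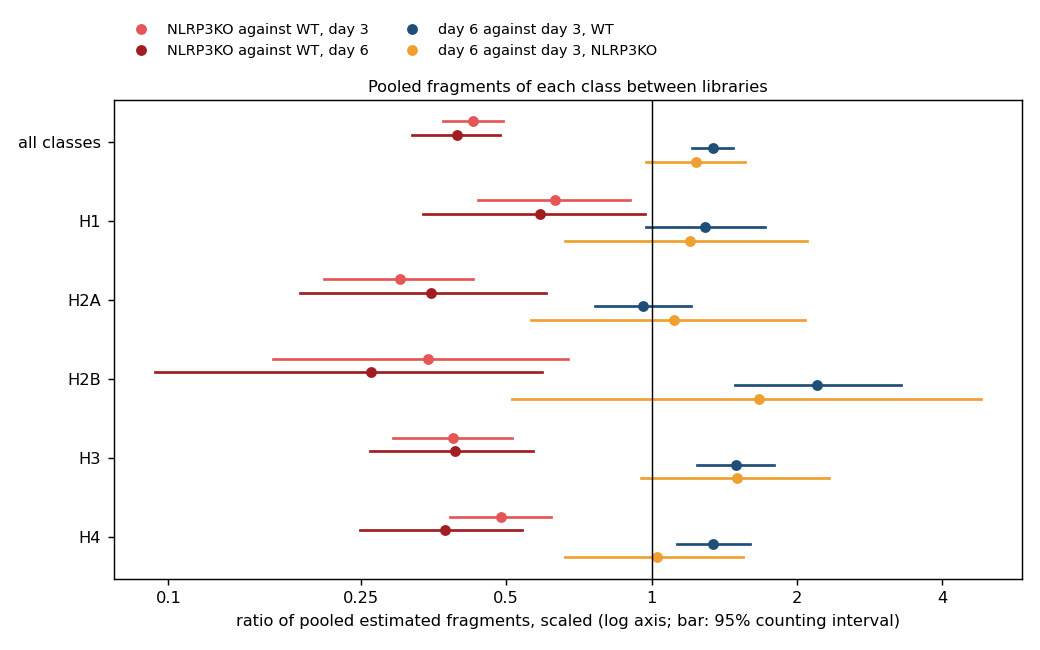
Ratio of pooled estimated fragments between libraries, after scaling, on a log axis for all classes together and for each class; bars are exact 95% intervals that cover counting error only. On this scaling all genotype intervals lie left of 1 on both days, and the WT day 6 against day 3 interval for H2B, 1.49 to 3.29, lies right of it.

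In WT the scaled histone sum at day 6 was 1.29 times that of day 3, and a pooled ratio of 1.34 (1.21 to 1.48). Of 63 genes, 21 were at least 2-fold higher, where 24.1% of all 5589 genes were, and 3 at least 2-fold lower, where 20.2% were. The median difference was 0.40 against -0.03 for all genes. Among the 57 above 0 in both libraries, 17 were at least 2-fold higher, where 11.6% of all genes were, and 1 at least 2-fold lower, where 10.2% were. The bounds lay apart for 5 genes, all higher at day 6, where 1.66% of all genes were higher and 1.25% lower with bounds apart. Hist1h2bj, among these, was listed at 0 in WT day 3 with both bounds at 0. Of the 21, 13 were H2B genes, out of 18 H2B genes kept. Hist1h2bg stood at 17.5 and 74.6, Hist1h2bk at 3.23 and 35.4, and Hist1h2bc at 5.57 and 33.2 in WT day 3 and WT day 6. Of their coding windows, 85.2%, 95.2% and 97.6% occur in other histone genes. Of the 18, 14 were higher at day 6 and 4 lower, among them Hist2h2bb, with no shared windows, at 52.5 and 50.4. H2B fragments numbered 39 and 88, for a ratio of 2.20 (1.49 to 3.29), while H2A had 156 and 154 fragments and a ratio of 0.961 (0.764 to 1.21). H3 and H4 lay between, at 1.49 (1.24 to 1.79) and 1.34 (1.13 to 1.60). Over the 9 genes with at most 20% shared windows the scaled sum was 0.686 times that of day 3, the opposite direction, but their pooled ratio of 0.824 (0.600 to 1.13) includes 1. Without Hist2h4, at 197 and 103 their largest value, the scaled sum was 1.04 times that of day 3.

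In NLRP3KO the scaled sum at day 6 was 1.13 times that of day 3, and the pooled ratio was 1.24 (0.974 to 1.56), an interval that includes 1. Per fragment on other genes it was 1.72 (1.36 to 2.17). Of 58 genes, 13 were at least 2-fold lower, where 51.8% of all 5204 genes were, and 15 were at least 2-fold higher, where 21.0% were. Among the 47 above 0 in both libraries, 5 were at least 2-fold lower, where 8.12% of all genes were, and 12 at least 2-fold higher, where 26.8% were. The bounds lay apart for 2 genes, both lower at day 6, where 8.32% of all genes were lower and 0.0769% higher with bounds apart. Hist2h2ac, among these, was listed at 0 in NLRP3KO day 6 with both bounds at 0. H3 genes gave the highest number that were at least 2-fold higher, 5 of 12. Among them were Hist1h3c at 3.14 and 53.5 and Hist1h3e at 21.8 and 58.5. H4 was level, with a pooled ratio of 1.03 (0.663 to 1.55). Both time comparisons share their libraries with the genotype comparisons, so a high or low library enters several of these values.

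Genes that act around the histones were described from lists set beside them. Slbp, the stem-loop binding protein, had FPKM of 5.57, 3.54 and 4.77 in WT day 3, NLRP3KO day 3 and WT day 6 and was listed at 0 in NLRP3KO day 6. Of 13 kept genes for histone mRNA processing and transcription, 3 were at least 2-fold lower in NLRP3KO at day 3, near the 27.2% of all genes, and 1 was higher, Cstf1, a polyadenylation factor at 0 and 1.26. The list median was -0.34, between that of the histones and that of all genes. At day 6, 9 of 14 were at least 2-fold lower and 2 higher, where 53.8% and 20.9% of all genes were. The median was then -2.05 beside -1.52. Among the 4 above 0 in both libraries, 0 were at least 2-fold lower and 1 was higher, with a median of 0.86 beside 0.33.

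Many S phase genes and histone chaperones were lower in NLRP3KO at day 3, when 27.2% of all genes passed 2-fold downwards and 25.4% upwards. Of 30 S phase genes, 16 passed 2-fold downwards and 0 upwards, around a median of -1.11, and of 16 chaperone genes 9 passed downwards and 0 upwards, around a median of -1.18. Among genes above 0 in both libraries, 8 of 22 S phase genes and 7 of 14 chaperone genes passed downwards, where 14.3% of all genes did. Pcna, the sliding clamp of DNA polymerase, had FPKM of 14.9, 7.55, 15.9 and 6.93. Mcm3, a subunit of the replicative helicase, had 8.46, 3.84, 5.18 and 8.44. Npm1, a nucleolar histone chaperone, had 43.5, 12.8, 47.2 and 12.5, lower in NLRP3KO on both days. At day 6, 18 of 31 S phase genes and 4 of 16 chaperone genes were at least 2-fold lower, where 53.8% of all genes were, with medians of -1.51 and -0.65 beside -1.52. Among genes above 0 in both libraries, 3 of 15 S phase genes and 1 of 13 chaperone genes were, where 9.88% of all genes were, and their medians were -0.03 and -0.59 beside 0.33. Whether the histone difference follows these genes was not tested.

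Variant histones, which are made outside S phase and mostly carry poly(A) tails, had a median difference of -0.15 at day 3. Of 9 genes, 2 passed 2-fold downwards and 2 upwards, where 27.2% and 25.4% of all genes did. At day 6, 6 of 9 passed downwards and 1 upwards, where 53.8% and 20.9% of all genes did. The median was then -2.68 beside -1.52 for all genes. Among the 4 above 0 in both libraries it was -0.27 beside 0.33. H2afx, a variant whose mRNA is known in both a stem-loop and a poly(A) form, had FPKM of 30.02, 10.4, 39.5 and 12.7 and was lower in NLRP3KO on both days, with log2 differences of -1.66 and -1.76. H3f3b, which encodes the variant H3.3, had 10.7, 9.11, 8.64 and 8.35, and H3f3a had 8.90, 9.04, 6.65 and 0. Among other RNAs without a poly(A) tail at day 3, Rn45s, the ribosomal RNA precursor, stood at 57645 and 63242, Rmrp at 2106 and 2513, and Rpph1 at 7700 and 5361 in WT and NLRP3KO. None of the 4 kept genes of that list was at least 2-fold apart at day 3, with a median of -0.15. Their deposited bounds lay apart for 2, Rpph1 with NLRP3KO lower, at a log2 difference of -0.70, and Rn45s with NLRP3KO higher as deposited but -0.05 on the log2 scale after scaling. At day 6 Rmrp stood at 4145 and 1511, and 2 of the 4 were at least 2-fold lower, where 53.8% of all genes were.

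**Figure D5:**
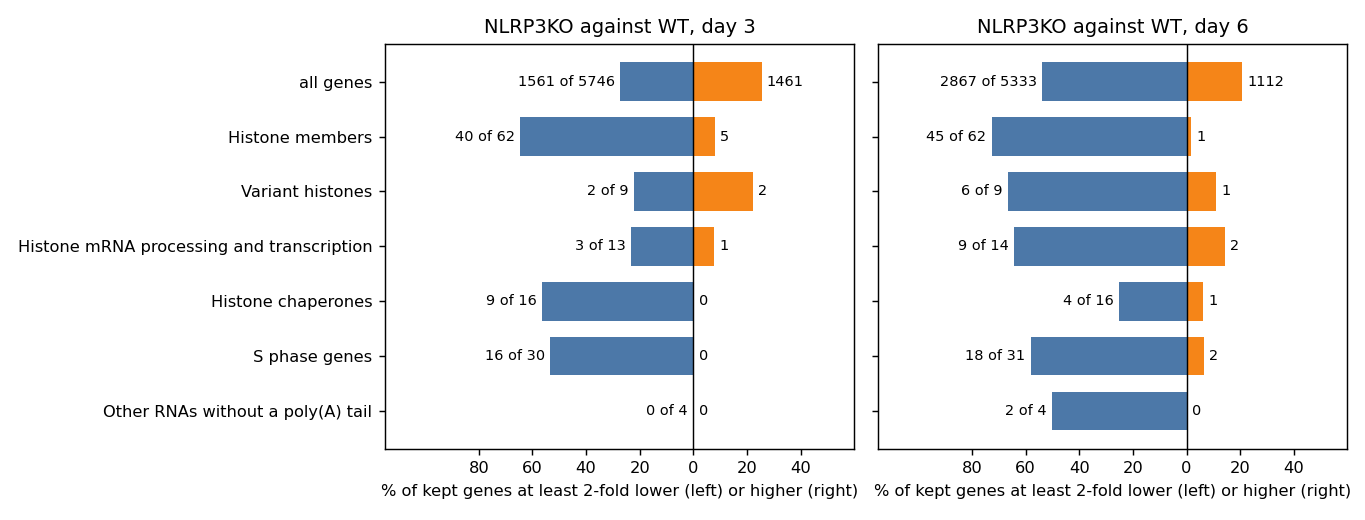
Percentage of kept genes at least 2-fold lower (left) or higher (right) in NLRP3KO than in WT, for all genes, the histone genes and the related lists, with the number of genes at each bar, at day 3 and day 6. Histones, chaperones and S phase genes have the longest left bars at day 3, at 40 of 62, 9 of 16 and 16 of 30.

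In the naive libraries histone levels were low, with a summed FPKM of 349 in WT and 269.6 in NLRP3KO and 0.677 and 0.466 histone fragments per 1000 on other genes. These libraries were made from purified mRNA, so their levels are not compared with Th2 cells. H4 summed to 132 in WT and 69.1 in NLRP3KO, from 197 and 74 fragments. Hist1h4d had 21.5 and 18.8, Hist2h2bb 19.3 and 18.5, Hist1h1c 15.7 and 12.2 and Hist1h2ao 14.8 and 19.2 in WT and NLRP3KO. Hist1h4c stood at 19.6 and 6.15, Hist1h4n at 20.6 and 12.8, Hist2h2ac at 7.81 and 13.9 and Hist2h2aa1 at 13.9 and 17.2. These are deposited values, and the scaling changes some directions: after scaling Hist1h2ao came to 4.87 in WT and 4.70 in NLRP3KO, and Hist2h2aa1 was likewise not higher in NLRP3KO. Hist2h2ac, at 2.56 and 3.41, was the one of these genes still higher in NLRP3KO. B cell markers summed to 74.2 and 33.0 and erythroid markers to 134 and 299.7 in naive WT and NLRP3KO, all 4 and all 3 of them above 0 in both, and their part in the naive histone values was not tested.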

How the data were processed

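RNA sequencing tables of 6 mouse CD4 T cell libraries, 1 per group, were analysed. The authors deposited FPKM with lower and upper confidence bounds and a status for each entry, per the file headers. The submitters' processing notes name mm9, TopHat and Cufflinks, with versions not given in the sources used here. The unit is FPKM, not counts, so no count test was run.

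FPKM were scaled by the median ratio over 1059 genes that reached an FPKM of 1 in each library. Factors were 0.328 (WT) and 0.245 (NLRP3KO) for naive cells, 2.02 and 1.78 for day 3, and 1.83 and 1.62 for day 6. Printed FPKM are as deposited. Differences were taken after adding a pseudocount of 1 to scaled FPKM and taking log2, so changes of low genes are understated; genes that reached an FPKM of 1 in either library were kept. Bounds of single-exon genes are whole steps of 1 fragment, within a tolerance of 0.002, which gave library totals. Fragments of 57 of 66 histone genes are deposited FPKM divided by 1 step. They need not be whole numbers, and pooled sums were rounded for the intervals. Deposited FPKM of short genes can exceed their bounds, as for Rpph1 in WT day 3 (7700, upper bound 4884). Fragments of the shortest genes may therefore be overstated, and the FPKM worth of 1 fragment understated. Totals and fragments are inferences, and fragments on other genes, from median GENCODE transcript lengths, are approximate. PCR without molecular identifiers means that intervals cover counting error only.

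Histone entries of low-data status, 5 in all, were left out. Named genes were histone genes that reached an FPKM of 20 in a Th2 library, up to 30 by mean scaled level, the 8 highest in naive cells, and up to 5 per list; others are exceptions or zeros chosen after their values were seen. Members and lists were chosen with earlier results of these data known. Scaling, pseudocount, filters and summed members were varied. Python 3.11.15, numpy 2.4.6, pandas 2.3.3, scipy 1.17.1 and matplotlib 3.10.9 were used. Scaling and intervals were tested on simulated data. The simulated libraries had naive WT levels and totals near those of the naive libraries, far above the Th2 totals. Scaling at the depth of the Th2 libraries was therefore not tested.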

Additional observations from a re-analysis of the deposited data

Results flagged for a closer look

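Histone genes at least 2-fold apart between genotypes in opposite directions at day 3 and day 6 were all H2B genes. With 1 library per group, the differences between days were not tested, and the share of all genes doing so was not computed. Hist1h2ba, Hist1h2bj and Hist1h2bp were listed at 0 in WT day 3, and Hist1h2ba and Hist1h2bk at 0 in NLRP3KO day 6. The log2 difference of NLRP3KO minus WT was 2.86 at day 3 and -3.49 at day 6 for Hist1h2ba, 2.88 and -2.03 for Hist1h2bj, 1.82 and -6.04 for Hist1h2bk, and 3.58 and -1.19 for Hist1h2bp.

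Histone genes at least 2-fold apart between days in opposite directions in the 2 genotypes numbered 7, again untested. The share of all genes doing so was not computed, but in NLRP3KO 51.8% of all genes were at least 2-fold lower at day 6. Hist1h2ba, Hist1h2bc, Hist1h2bg and Hist1h2bk were listed at 0 in NLRP3KO day 6. The log2 difference of day 6 minus day 3 was 3.49 in WT and -2.86 in NLRP3KO for Hist1h2ba, 2.33 and -3.46 for Hist1h2bc, 1.92 and -1.95 for Hist1h2bg, and 3.13 and -4.73 for Hist1h2bk. For Hist1h3f it was 1.35 and -3.82, for Hist1h3i 1.15 and -1.23, and for Hist1h4b 1.48 and -1.22.

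Entries of low-data status, left out above, also carried signal. A second Hist1h4n entry had FPKM of 8.99 in WT naive, 9.11 in NLRP3KO naive, 39.3 in NLRP3KO day 3 and 60.5 in WT day 6. Hist2h2aa2 had 4.40 in NLRP3KO naive, 37.4 in WT day 3 and 38.4 in NLRP3KO day 3.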

How the results depend on the processing

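Of 108 alternative values, 93 stayed close to the value reported. The ratio of summed histone FPKM, NLRP3KO against WT, lay between 0.278 and 0.452 at day 3 and between 0.341 and 0.595 at day 6 over all alternatives. Its values that moved were 0.278 at day 3 and 0.482 at day 6 over genes with at most 20% of windows shared, an alternative chosen after seeing the data, and 0.582 at day 6 as a share of fragments on genes. For these low-sharing genes the pooled ratio at day 6 was 0.5998 (0.2971 to 1.109), from 12 fragments against 77. Per fragment on other genes it was 0.8838 (0.4377 to 1.634). Both intervals include 1, so over these genes the day 6 difference was not separated from counting error. At day 3 their pooled ratio was 0.3204, with an interval that lies under 1. Between days, WT gave 1.43 with deposited FPKM and 0.686, a reversal, over genes with at most 20% of windows shared, and NLRP3KO gave 1.72 as a share of fragments on genes; the cause was not tested. Over the same genes without Hist2h4, also chosen after seeing the data, the ratio was 0.595 for NLRP3KO against WT at day 6 and, between days, 1.04 in WT and 1.75 in NLRP3KO, so the WT reversal rests on that gene. Counts that moved by over 1.5 times were small. With an FPKM of at least 5, and likewise among genes above 0 in both libraries, 2 genes were at least 2-fold higher in NLRP3KO at day 3 and 0 at day 6. Among genes above 0 in both libraries, 1 was at least 2-fold lower at day 6 in WT and 5 in NLRP3KO. Genes at least 2-fold lower in NLRP3KO numbered 33 to 40 at day 3 and 33 to 45 at day 6. No paired analysis was possible because the labels give no replicate numbers that pair libraries; a joint fit of genotype and stage was not run. Depth limits single genes in NLRP3KO day 6 most.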

Other observations

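Many H2A and H2B genes lie head to head, on opposite strands with overlapping promoter windows. Of these, 9 pairs had both windows in the RefSeq table. In WT day 3 the H2A gene was at least 5 times its H2B partner in 7 of 9 pairs, with Hist1h2aa and Hist1h2ba both at 0, and the pairs summed to an FPKM of 449.9 for H2A and 44.0 for H2B. In WT day 6 only 1 pair was that uneven, and the sums were 481 and 234. In NLRP3KO the sums were 137 and 39.0 at day 3 and 139 and 37.5 at day 6. Hist1h2ak and Hist1h2bn stood at 104 and 15.0 in WT day 3 and at 108 and 28.6 in WT day 6. Hist1h2ai and Hist1h2bl stood at 49.9 and 0.881, then at 72.9 and 18.9. FPKM are per length, and except for Hist1h2aa and Hist1h2ba the partners share most of their coding windows with other histone genes, so the division of reads among copies enters these values. The pairs were looked at after the low H2B values had been seen.

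The 15 histone genes with the letters AATAAA in the last 50 bases of an annotated transcript had median FPKM of 3.04 and 1.47 in WT naive and NLRP3KO naive. The other 51 had 3.78 and 2.77. In WT day 3, a library depleted of ribosomal RNA, the medians were 3.49 and 44.4, higher for the genes without these letters. FPKM are per length, and the part of transcript length and histone class in this difference was not tested.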
